A study of Mus musculus with 8 samples.

Results

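Potassium channel genes were examined in the brains of mice carrying a point mutation of Cstf2, which encodes the RNA-binding subunit of the cleavage stimulation factor that acts in 3′ end processing of messenger RNA. The genes were chosen by name: a row of the count table was taken if its symbol was Kcn followed by letters and a number. This matched 92 symbols, of which Kcne2, Kcnj13 and Kcnj8 were left out by the same rule, so that 89 genes remained of 25815 in the table. The measured tissue was total brain at postnatal day 50. One group held 5 D50A mice, named for a change of aspartate to alanine in the RNA recognition motif of CSTF2, and the other held 3 wild-type (WT) littermates. Both groups were on a C57BL/6NCrl background, reached by 4 generations of backcrossing and kept by breeding within the colony, and neither received a treatment. The labels gave no sex, litter or batch. Libraries were made from polyadenylated RNA and are called D50A 1 to 5 and WT 1 to 3. D50A 3 is the library labelled D0169Mut.

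Potassium channels let potassium ions leave the cell along their gradient, which sets the resting potential and ends the action potential. The pore-forming alpha subunits assemble into one channel around a shared pore, and the selectivity filter is a short stretch of the pore loop that admits potassium and holds back sodium. Voltage-gated (Kv) alpha subunits open on depolarisation. Calcium- and sodium-activated subunits open when those ions enter, inward rectifiers pass current best near the resting potential, and two-pore-domain subunits carry the leak current. Auxiliary subunits do not form the pore and change the gating, inactivation or transport of the alpha subunits to the membrane.

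The codons of the selectivity filter are the sequence feature that joins most of these genes, and they are shown for the Kv genes that the comparison turns on. In the longest coding sequence of each gene, in frame and on the coding strand only, a run of codons was searched in which the variable second residue was valine (ACNGTNGGNTANGGN), isoleucine (ACNATNGGNTANGGN) or leucine (ACNCTNGGNTANGGN, ACNTTAGGNTANGGN or ACNTTGGGNTANGGN). At least 1 of these was present in 54 of the 89 genes (60.7%) and in 65 of all 21584 coding genes (0.301%). The valine form was in 23 members and 0.116% of coding genes, and the isoleucine form in 24 members and 0.13%. Of the leucine forms, CTN was in 6 members (0.051% of coding genes), TTA in 1 (0.00463%) and TTG in none. All 8 Kv1, 2 Kv2, 4 Kv3, 3 Kv4, 5 Kv7 and 10 silent Kv genes held a match, as did 11 of 13 inward rectifiers, 9 of 14 two-pore-domain genes and 2 of 8 calcium- and sodium-activated genes. None of the 8 EAG, ERG and ELK genes and none of the 14 auxiliary genes held these letters in that frame. The following windows of 30 coding bases on mm10 have the searched codons in capitals.
Kcna4: accatgacaACTGTGGGCTATGGGgacatg
Kcng4: tccatgacgACCGTGGGCTATGGGgacatg
Kcns2: agtatgaccACAGTTGGGTACGGAgatgtg
Kcnc2: accatgactACCTTAGGTTACGGGgatatg
Kcnq3: acactggccACCATTGGTTATGGAgacaag

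The Kcna4 window lies at chr2:107296486-107296515 on the plus strand and that of Kcng4 at chr8:119625904-119625933 on the minus strand. The Kcns2 window is at chr15:34839603-34839632 (plus) and that of Kcnc2 at chr10:112456220-112456249 (plus). The Kcnq3 window is at chr15:66023725-66023754 (minus). Each of these windows lies in 1 coding exon. The valine windows of Kcna4 and Kcng4 matched at 27 of 30 bases, whereas Kcns2, which has the same form and belongs with Kcng4 to the silent subunits, matched Kcng4 at 19. The leucine window of Kcnc2 matched Kcna4 at 23 bases and the isoleucine window of Kcnq3 at 20. In all 9 two-pore-domain genes with a match and in all 3 Kv4 genes, the window was split by an intron, which was the case in none of the other windows examined. Runs of 50 bases were also searched, on both strands, in the transcripts of all other genes. In 48 of the 89 genes no run was shared, and 6 genes shared more than 10% of their runs. The main partner of each of these 6 was not a potassium channel gene, for example Gm26673 for Kcna6 and Catsperz for Kcnk4. These shares are therefore not a measure of likeness between channels. In all, 27 members overlap an exon of another gene, among them Kcnk3 (229 bp, Gm9899) and Kcnq5 (237 bp, Gm26580), both from the opposite strand. Reads from both strands could not be told apart where the counting ignored strand, a setting not given in the sources used here.

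Levels were compared between genes as CPM (counts scaled to a fixed library total) per kilobase of exon. In WT brain, Kcnab2, a cytoplasmic beta subunit of Kv1 channels, was the highest at 77.7 ± 3.91 CPM per kb (SD, n = 3). It was followed by the inward rectifier Kcnj4 at 50.0 ± 1.98 and by Kcna1, a Kv1 subunit of axons, at 46.7 ± 0.744. Kcnj10, the inward rectifier of astrocytes and oligodendrocytes, stood at 45.2 ± 3.14, which did not differ from Kcna1 beyond the spread. Kcnip2, a calcium-binding partner of Kv4 channels, Kcnk1, a two-pore-domain subunit, and Kcnj9, a subunit of G-protein-gated channels, lay within 1 SD of the most variable of them, at 38.4 ± 4.17, 37.8 ± 0.847 and 37.5 ± 1.42. In plain CPM, summed over genes and not corrected for length, the auxiliary genes gave 918, the 5 Kv7 genes 859, the inward rectifiers 718 and the 4 Kv3 genes 620 in WT. The 13 genes too low to be tested had between 1 and 41 counts over all 8 libraries together. They were Kcna7, Kcna10, Kcne1, Kcne3, Kcnj1, Kcnj15, Kcnk7, Kcnk15, Kcnk16, Kcnk18, Kcnmb3, Kcnn4 and Kcnv2. At this depth no difference in them could be detected.

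**Figure D1:**
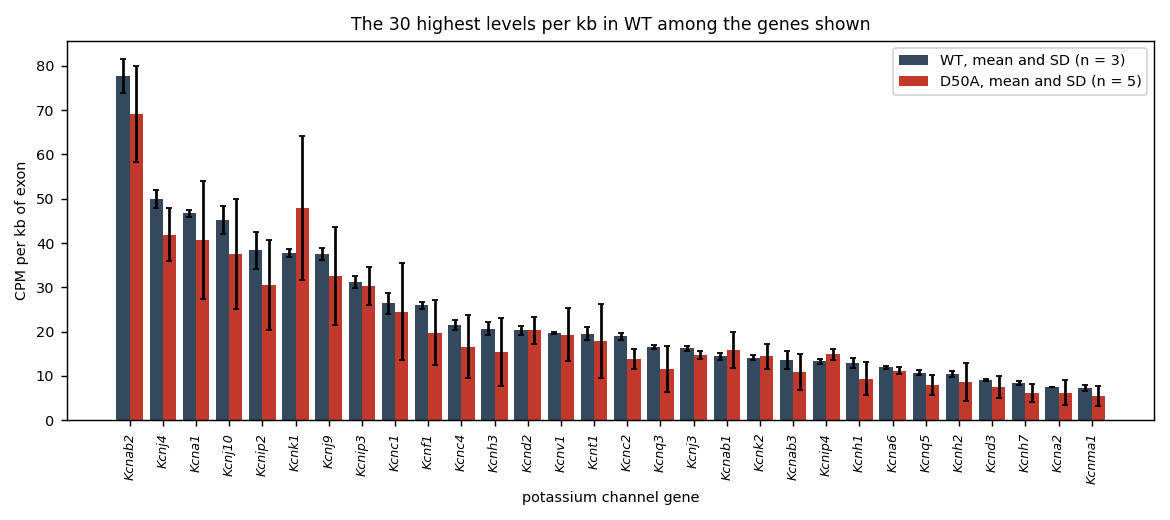
Bars give the mean and SD of the level, in CPM per kilobase of exon, in 3 WT and 5 D50A libraries for the 30 genes with the highest WT level among those shown. Kcnab2 at 77.7 and Kcnj4 at 50.0 CPM per kb were the highest in WT.

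Libraries held between 13675945 and 24802272 counts, and D50A 3 stood apart from the other 7. Mitochondrial genes took 11.9% of its counts against 4.08% to 5.14%, and potassium channel genes took 0.216% against 0.517% to 0.55%. In CPM their sum was 2736 in D50A 3, 4930 to 5258 in the other D50A libraries and 5268 to 5439 in WT. A second difference between libraries was the cerebellum. A list of 16 cerebellar markers, all detected, summed to 254 to 259 CPM in WT and 296 in D50A 1, but to 1070 to 1450 in D50A 2 to 5. Gabra6, which defines cerebellar granule neurons, was at 0 in WT 1 and D50A 1, and at 0.304 and 0.119 CPM in WT 2 and WT 3. In D50A 2 to 5 it stood at 53.2, 108, 108 and 103 CPM. Defining cerebellar markers were thus at or near 0 in 4 of 8 libraries labelled total brain. A list of 10 cortical and hippocampal markers summed to 1460 to 1530 CPM in WT, 1510 in D50A 1, 1240 to 1360 in D50A 2, 4 and 5, and 621 in D50A 3. In bulk tissue, fewer cells of a type and less RNA per cell cannot be told apart. Cstf2 itself was at 108 ± 25.3 CPM in D50A (SD, n = 5) and 127 ± 6.66 in WT (n = 3). A count per gene does not show a point mutation, so this level does not check the genotype.

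No potassium channel gene passed the test between D50A and WT. With edgeR's quasi-likelihood test on all 8 libraries and Benjamini-Hochberg adjustment over 16810 genes, 0 of the 76 tested members and 0% of all genes had an adjusted p under 0.05. The smallest adjusted p was 0.84 in the members and also 0.84 over all genes. Even Gabra6, with a log2 fold change of 8.99, had an edgeR adjusted p of 0.84. The absence of calls in this fit therefore does not show that potassium channel genes were unchanged. At an unadjusted p under 0.05 there were 4 members (5.26%, against 2.5% of all genes): Kcna4, Kcnc2 and Kcns2, lower in D50A, and Kcng4, higher. DESeq2 called 0 members (0.185% of all genes), and limma-voom with sample quality weights, which gives an uneven library less weight, called 10 (13.2%, against 3.08% of all genes). The fitted log2 fold change was below 0 in 59 of the 76 (77.6%, against 51.4% of all genes), and its median was -0.22 in the members and -0.01 in all genes. Without D50A 3 the value was below 0 in 55 (72.4%, against 50.6%) with a median of -0.10, and again 0 members and 0% of genes were called by edgeR, with 14 members (18.4%, against 9.39%) at an unadjusted p under 0.05. With the mean of the cerebellar list as a covariate, 41 (53.9%, against 46.5%) were below 0 and the median was -0.08. That mean was 2.41 to 2.52 log2 CPM in WT, 2.46 in D50A 1 and 5.14 to 5.7 in D50A 2 to 5. Fold changes with this covariate, here and for the genes below, therefore rest largely on D50A 1 against WT. They cannot separate genotype from cerebellar content.

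Leaving out D50A 1 and D50A 3 together, which compares the 3 remaining D50A libraries with the 3 WT libraries, gave 16 members with an adjusted p under 0.05 by edgeR (21.1%, against 6.42% of all genes). Of these, 7 were higher in D50A (9.21%, against 3.36%), among them Kcng4, Kcnip4, Kcnj12, Kcnk3, Kcnk10 and Kcnk12. The other 9 were lower (11.8%, against 3.06%), namely Kcna4, Kcnc2, Kcnf1, Kcnh3, Kcnip2, Kcnj4, Kcnn3, Kcnq3 and Kcnq5. All 10 genes called by limma-voom on the 8 libraries were among these 16. The fits share libraries, and limma-voom gives an uneven library less weight, so this overlap is not separate evidence. In the 3 D50A libraries kept here the cerebellar markers were at 1070 to 1450 CPM and in WT at 254 to 259. In this comparison genotype and cerebellar content therefore cannot be told apart. The limma-voom calls were not separated from cerebellar content either. Without a model, 1 member (Kcng4, 1.32%, against 3.22% of all genes) lay higher in every D50A library than in every WT library. In 9 members (11.8%, against 4.24%) every D50A library lay below every WT library: Kcna4, Kcnc2, Kcnh1, Kcnk6, Kcnn3, Kcnq3, Kcnq5, Kcns2 and Kcnt2.

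**Figure D2:**
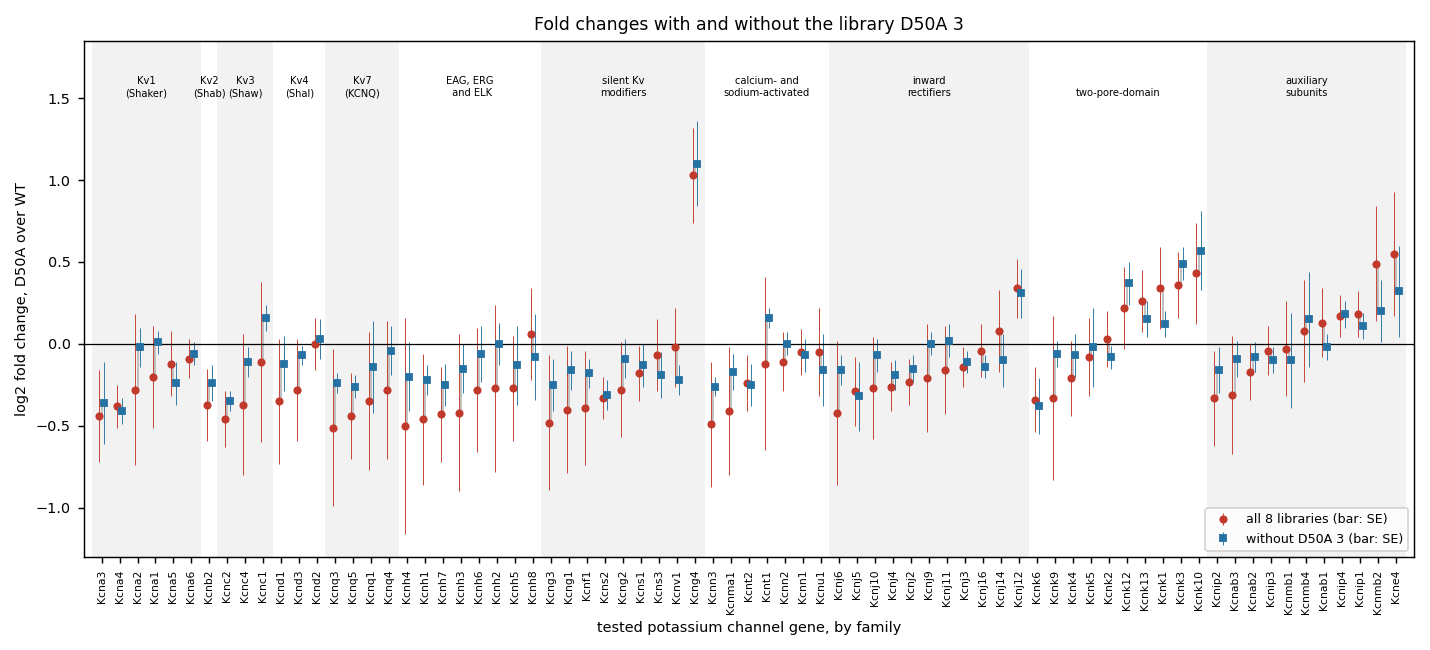
Fitted log2 fold change (D50A minus WT) of 73 of the 76 tested potassium channel genes, grouped by family, with all 8 libraries and without D50A 3; bars are 1 standard error. The bars are wide with D50A 3 for genes such as Kcnq3 (-0.51, SE 0.48) and narrow without it (-0.24, SE 0.06).

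Among the 6 tested Kv1 genes, whose channels sit on axons and near synapses, Kcna4 differed most from its spread. It encodes a subunit of fast-inactivating (A-type) channels. Its level was 25.7, 27.0, 28.8, 22.4 and 27.5 CPM in D50A 1 to 5 and 34.7, 34.2 and 33.9 CPM in WT 1 to 3. All 5 D50A libraries were lower than all 3 WT libraries. The part of cerebellar or mitochondrial content in the level of Kcna4 was not tested. The log2 fold change was -0.38 (SE 0.13, edgeR adjusted p = 0.84), -0.41 without D50A 3 (SE 0.08, edgeR adjusted p = 0.19) and -0.39 with the cerebellar covariate. Over the 15 alternative settings the value stayed between -0.44 and -0.33, with adjusted p between 0.0058 and 1. Kcna1 and Kcna2 were lowest in D50A 3 at 82.6 and 17.8 CPM, against WT means of 223 ± 3.56 and 89.4 ± 0.889 (SD, n = 3). Without that library their log2 fold changes were 0.01 and -0.02. Kcna6, also abundant, was at 63.2 CPM in D50A 3, 63.4 to 74.7 in the other D50A libraries and 68.0 to 73.3 in WT, so it was not low in D50A 3 as those genes were. Of its 5945 bp of exon, however, 2355 bp overlap Gm26673 on the opposite strand. Where the counting ignored strand, reads of Kcna6 and Gm26673 could not be told apart there. Kcna3 was lowest in D50A 1, at 5.57 CPM, and at 7.77 to 12.9 in the other D50A libraries and 11.2 to 16.1 in WT. The fitted difference was -0.44 on the log2 scale with all libraries and -1.28 with the cerebellar covariate (adjusted p = 1 by edgeR, 0.51 to 1 over the alternatives).

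Kv3 channels allow neurons to repolarise fast and fire at high rates. Kcnc2, a Kv3 gene known from fast-spiking interneurons, was at 101, 111, 69.9, 103 and 106 CPM in D50A 1 to 5 and at 131, 133 and 141 CPM in WT. It was lower in every D50A library, and lowest in D50A 3. Its log2 fold change was -0.46 (SE 0.17), -0.35 without D50A 3 (SE 0.06, edgeR adjusted p = 0.19) and -0.47 with the cerebellar covariate. Adjusted p ran from 0.0033 to 1 over the alternatives. A list of 7 interneuron markers summed to 1350 CPM in D50A 3, 818 to 903 in the other D50A libraries and 845 to 889 in WT. Their mean log2 CPM was 6.45 in D50A 3, 6.21 to 6.27 in the other D50A libraries and 6.20 to 6.29 in WT. The median log2 fold change of that list was -0.19 and without D50A 3 -0.15. Its members were split: without D50A 1 and D50A 3, edgeR called 2 of the 7 lower and 1 higher, against 3.06% and 3.36% of all genes. That comparison cannot separate genotype from cerebellar content. The part of interneurons in the level of Kcnc2 was not tested. Kcnc1 was at 47.9 CPM in D50A 3 and at 261 to 295 in the other D50A libraries, against 230 to 274 in WT. Kcnc4 was lowest in D50A 3 too, at 15.9 CPM.

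Neither Kv2 gene was called. Kcnb2, a delayed rectifier, was at 18.7 to 36.0 CPM in D50A and 34.3 to 40.0 in WT. Of the Kv4 genes, which carry the somatodendritic A-type current, Kcnd2 had a log2 fold change of 0.00 (SE 0.16), and Kcnd3 one of -0.28 that was -0.07 without D50A 3.

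The silent Kv subunits form no channel alone and modify Kv2 channels when they join them. Kcng4 had the largest fold change of the 76 members. Its level was 14.5, 30.9, 21.8, 34.5 and 32.2 CPM in D50A 1 to 5 and 13.2, 14.2 and 11.9 CPM in WT. D50A 1 lay just above the highest WT library, and the other 4 D50A libraries were well above it. The log2 fold change was 1.03 (SE 0.29, edgeR adjusted p = 0.84) and without D50A 3 1.1 (SE 0.26, edgeR adjusted p = 0.22). D50A 1 was also the D50A library with the lowest cerebellar list: its mean log2 CPM was 2.46, with 2.41 to 2.52 for WT and 5.14 to 5.70 for the other D50A libraries. With that mean as a covariate the log2 fold change was 0.12 (SE 0.24), a value that rests largely on D50A 1. Without D50A 1 and D50A 3 the log2 fold change was 1.33 with an edgeR adjusted p of 5.4e-08, and over all alternatives adjusted p ran from 5.4e-08 to 1. The part of cerebellar content in the level of Kcng4 was not tested, and without D50A 1 it cannot be told apart from genotype. Kcns2 lay on the other side, at 23.2, 28.3, 25.8, 28.6 and 24.9 CPM in D50A and 32.5, 31.7 and 34.2 CPM in WT. All 5 D50A libraries were lower, D50A 1 the lowest. Its log2 fold change was -0.33 (SE 0.13), -0.31 without D50A 3 and -0.49 with the cerebellar covariate. Kcnv1 was highest in D50A 3, at 136 CPM, against 65.2 to 83.5 in the other D50A libraries and 89.5 to 91.4 in WT. Kcnf1 was at 129, 112, 35.8, 95.8 and 101 CPM in D50A and 129, 122 and 123 CPM in WT, so that D50A 1 lay level with WT.

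**Figure D3:**
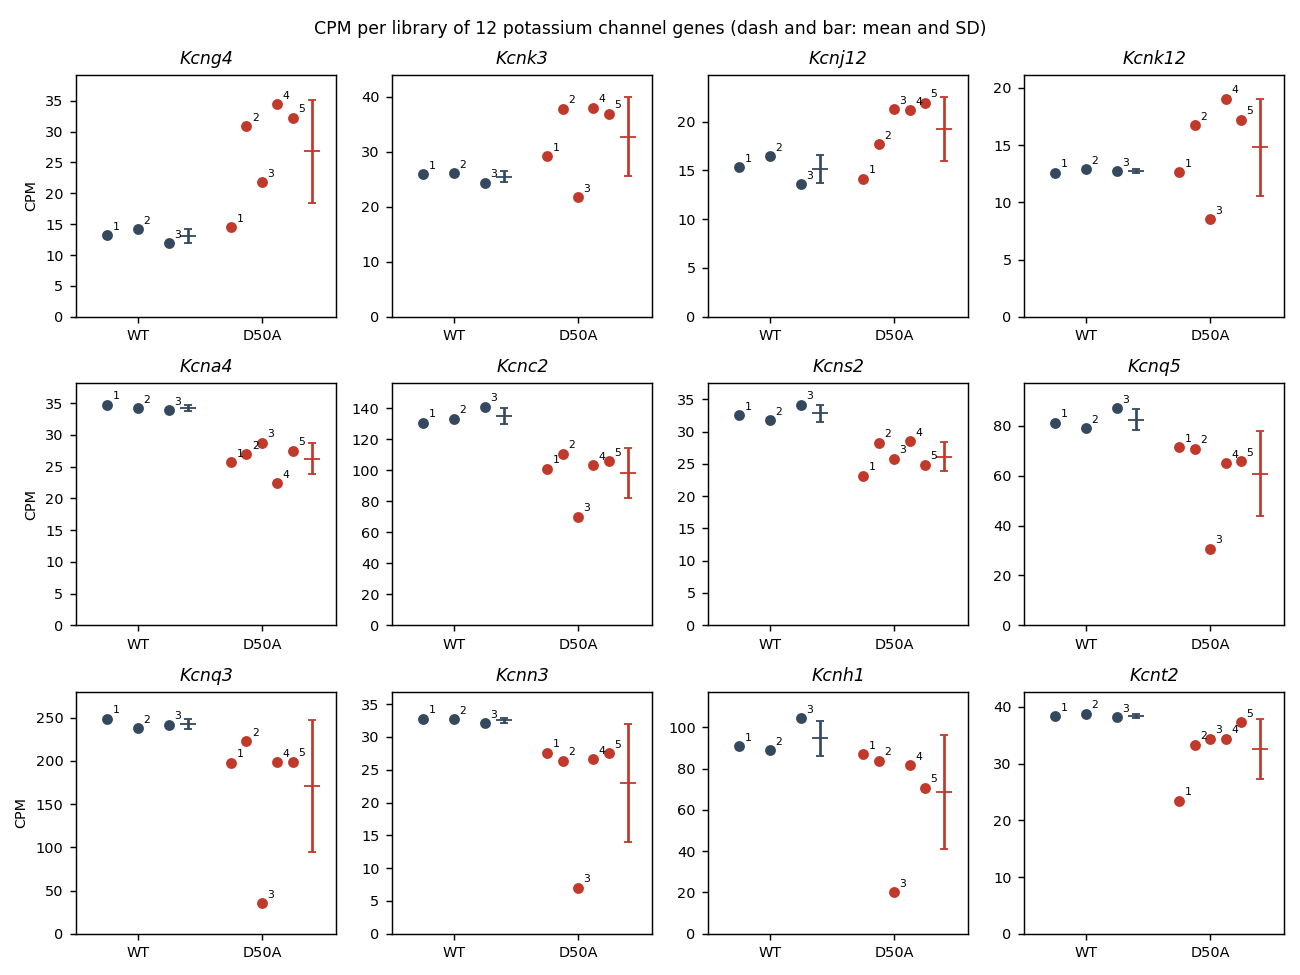
CPM of 12 potassium channel genes in each library, D50A 1 to 5 and WT 1 to 3, with the mean and SD of each group. Kcna4 lies at 22.4 to 28.8 CPM in D50A and 33.9 to 34.7 in WT, and in Kcng4 D50A 1 (14.5 CPM) lies next to WT.

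Kv7 channels carry the M-current, which holds back repetitive firing, and Kcnq3 and Kcnq5 encode subunits of it in brain. Kcnq3 was at 198, 223, 35.3, 199 and 199 CPM in D50A 1 to 5 and 249, 238 and 242 CPM in WT. Kcnq5 was at 71.4, 70.9, 30.7, 65.1 and 66.0 CPM in D50A and 81.3, 79.1 and 87.2 CPM in WT. For both genes each D50A library was below each WT library, with D50A 3 much the lowest. Without D50A 3 the log2 fold changes were -0.24 (SE 0.06) and -0.26 (SE 0.07), against -0.51 and -0.44 with all libraries. All 5 Kv7 genes had a fitted value below 0 with all 8 libraries, from -0.51 to -0.28, and without D50A 3 from -0.26 to -0.04.

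EAG, ERG and ELK channels are voltage-gated channels with a domain that resembles a cyclic-nucleotide-binding site. Kcnh1, an EAG subunit, was at 87.1, 83.9, 20.3, 81.6 and 70.7 CPM in D50A and 90.8, 88.9 and 104 CPM in WT. Its D50A libraries were all lower, but outside D50A 3 the gap to WT was narrow, with a log2 fold change of -0.22 (SE 0.09). Kcnh3, an ELK subunit of the forebrain, was at 141, 105, 19.8, 89.4 and 88.7 CPM in D50A and 128, 119 and 110 CPM in WT. D50A 1 was the highest of all 8 in this gene and the other 4 D50A libraries were the lowest, so the groups overlapped. Kcnh7, an ERG subunit, was at 47.4 to 121 CPM in D50A and 121 to 134 in WT. Kcnh4 was at 13.7 to 27.3 CPM in D50A 1, 2, 4 and 5 and 18.2 to 24.8 in WT. Its 1.20 CPM in D50A 3 was the lowest level relative to WT of any tested member in any D50A library.

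In the calcium- and sodium-activated family, Kcnn3, an SK subunit of the afterhyperpolarisation that follows spikes, was at 27.6, 26.4, 7.03, 26.6 and 27.5 CPM in D50A and 32.8, 32.7 and 32.1 CPM in WT. Outside D50A 3 both groups were tight, and the D50A libraries all lay lower, with a log2 fold change of -0.26 (SE 0.06). Kcnt2, a sodium-activated subunit, was at 23.4, 33.3, 34.4, 34.4 and 37.3 CPM in D50A and 38.3, 38.8 and 38.2 CPM in WT. Here D50A 1 was the lowest, and D50A 5 lay close to WT. Its log2 fold change was -0.24 with all libraries and -0.71 (SE 0.18, edgeR adjusted p = 1, 0.25 to 1 over the alternatives) with the cerebellar covariate. Kcnt1, its paralogue, was at 29.2 CPM in D50A 3 and between 204 and 211 in the other D50A libraries, above the WT libraries at 173 to 201. Kcnma1, the large-conductance channel that opens to both calcium and voltage, was at 30.1 CPM in D50A 3, 86.9 to 118 in the other D50A libraries and 113 to 138 in WT.

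The inward rectifiers had a median log2 fold change of -0.21 over 11 tested genes and -0.11 without D50A 3. Kcnj4, a strong rectifier of forebrain neurons, was at 110, 92.5, 75.3, 82.9 and 90.1 CPM in D50A and 111, 109 and 103 CPM in WT. D50A 1 lay within WT and the other 4 below it. The log2 fold change was -0.26 (SE 0.15) and with the cerebellar covariate 0.00 (SE 0.21). Kcnj12, a related strong rectifier, was at 14.1, 17.7, 21.3, 21.1 and 22.0 CPM in D50A and 15.3, 16.5 and 13.6 CPM in WT. Again D50A 1 lay within WT, here with the other 4 higher. Its log2 fold change was 0.34 (SE 0.18) and with the covariate -0.10 (SE 0.21). Kcnj2, another strong rectifier, was at 15.45 CPM in D50A 3 and 19.1 to 20.5 in the other D50A libraries, against 19.7 to 23.9 in WT. Kcnj10 was at 90.0 CPM in D50A 3 and 192 to 261 in the other D50A libraries, against 225 to 255 in WT, while the 11 astrocyte markers summed to 4240 CPM in D50A 3 and 4640 to 5120 elsewhere. Kcnj9 was at 55.6 CPM in D50A 3 and 152 to 173 in the other D50A libraries, with a WT mean of 161 ± 6.10 (SD, n = 3).

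Two-pore-domain genes had a median log2 fold change of 0.12 over 10 tested genes and 0.05 without D50A 3. Kcnk3, an acid-sensitive leak channel, was at 29.2, 37.8, 21.7, 38.0 and 36.9 CPM in D50A and 25.9, 26.1 and 24.4 CPM in WT. D50A 3 was the lowest of all 8 libraries and the other 4 D50A libraries were the highest. The log2 fold change was 0.36 (SE 0.20), without D50A 3 0.49 (SE 0.10) and with the cerebellar covariate 0.14 (SE 0.31). Kcnk12 was at 12.7, 16.7, 8.51, 19.1 and 17.2 CPM in D50A and 12.6, 12.9 and 12.7 CPM in WT, and Kcnk10, a stretch-sensitive channel, at 4.28, 8.47, 3.98, 7.84 and 9.25 CPM in D50A and 4.96, 5.52 and 4.57 CPM in WT. For both, D50A 2, 4 and 5 lay above WT, D50A 1 lay within or below its range, and D50A 3 was the lowest library. Kcnk6 was at 3.74, 2.33, 3.70, 2.86 and 3.26 CPM in D50A and 3.85, 4.35 and 3.86 CPM in WT. Its groups did not overlap, but the highest D50A library lay close to the lowest WT library. Kcnk2, a stretch- and temperature-sensitive channel, was at 71.4, 65.0, 94.7, 63.6 and 61.6 CPM in D50A and 71.5, 71.0 and 66.7 CPM in WT. D50A 3 was the highest library and the groups overlapped, with a log2 fold change of 0.03 (SE 0.17). Kcnk1 was also highest in D50A 3, at 171.1 CPM, against 81.8 to 99.0 in the other D50A libraries and 82.9 to 86.6 in WT.

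The 11 tested auxiliary genes had a median log2 fold change of 0.08 with all libraries and -0.02 without D50A 3. Kcnab1, a beta subunit that can inactivate Kv1 channels, was at 196 CPM in D50A 3 and 105 to 127 in the other D50A libraries, against 117 to 132 in WT. Kcnab2 was at 305 CPM in D50A 3, 374 to 475 in the other D50A libraries and 410 to 453 in WT. Kcnip2 was at 155, 115, 56.1, 110 and 96.6 CPM in D50A and 149, 130 and 121 CPM in WT, and Kcnip4, of the same family, at 47.8, 54.9, 54.2, 53.6 and 60.5 CPM in D50A and 48.1, 46.1 and 50.0 CPM in WT. For Kcnip2, D50A 1 was the highest of all 8 libraries and the other D50A libraries lay below WT. For Kcnip4, D50A 1 lay inside the WT range and the other 4 above it. The sum of the cortical and hippocampal markers had D50A 1 at or above the lowest WT library, D50A 2, 4 and 5 below it, and D50A 3 lowest of all. This order, looked for after the values were seen, was found in 9 of the 76 members (11.8%, against 6.31% of all tested genes), among them Kcna6, Kcnab2, Kcnf1, Kcng1, Kcng2, Kcnh3, Kcnip2 and Kcnj4. Kcna6 met it only narrowly, with 63.2 CPM in D50A 3 and 63.4 in D50A 4. The part of those cell types in these genes was not tested.

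**Figure D4:**
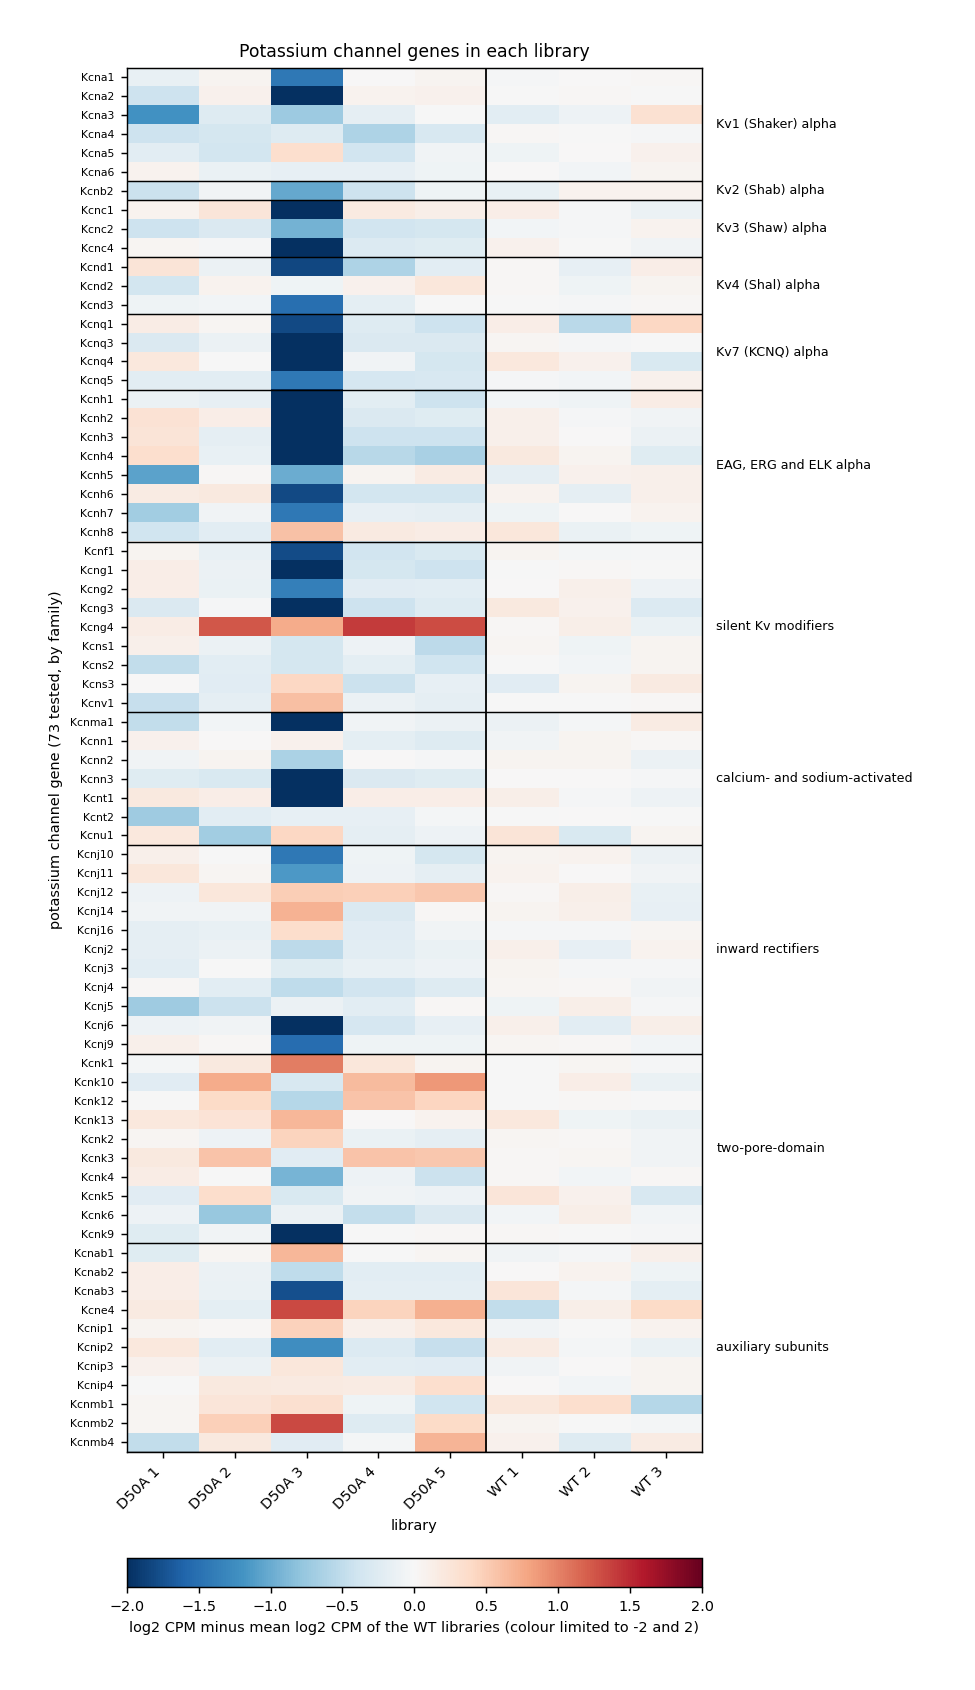
Log2 deviation of 73 of the 76 tested potassium channel genes from their WT means, with 1 column per library and genes grouped by family; colour stops at 2 units either way. Values in the D50A 3 column run from -4.06 (Kcnh4) to 1.32 (Kcne4 and Kcnmb2), and most cells of the other columns are paler.

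Across the members, D50A 3 held the lowest value of all 8 libraries for 45 of the 76 genes and the highest for 15. Its median deviation from the WT mean was -0.68 on the log2 scale, against -0.10 for all tested genes in that library, and between -0.18 and -0.01 for the members in the other D50A libraries. It was at least 1 log2 unit below the WT mean in 34 members and at least 0.5 above in 9. In D50A 1, 2, 4 and 5 there were 2, 0, 0 and 0 members at least 1 unit below. These counts were not made over all tested genes, so they do not show a trait particular to potassium channel genes. The 34 low members had a median exon length of 5581 bp, the 9 high members one of 3128 bp, and all tested members one of 4587 bp. Across genes of one library, which are not independent replicates, Spearman's rho between the deviation and exon length was -0.46 over the 76 members in D50A 3. It was -0.27 in D50A 1 and between -0.07 and -0.03 in D50A 2, 4 and 5. Over 16700 tested genes with a length it was -0.42 in D50A 3 and between -0.23 and -0.12 in the other D50A libraries. In WT 1 to 3, each part of the mean it is compared with, rho was 0.08, -0.18 and 0.06 over those genes. Over the members it was -0.14, -0.16 and 0.16 in WT 1 to 3. Oligodendrocyte and microglial markers were also high in D50A 3: the 12 oligodendrocyte genes summed to 22300 CPM against 9980 to 12000 in the other 7 libraries, and the 10 microglial genes to 717 against 281 to 342. The part of exon length, mitochondrial share or these cell types in the levels of D50A 3 was not tested.

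**Figure D5:**
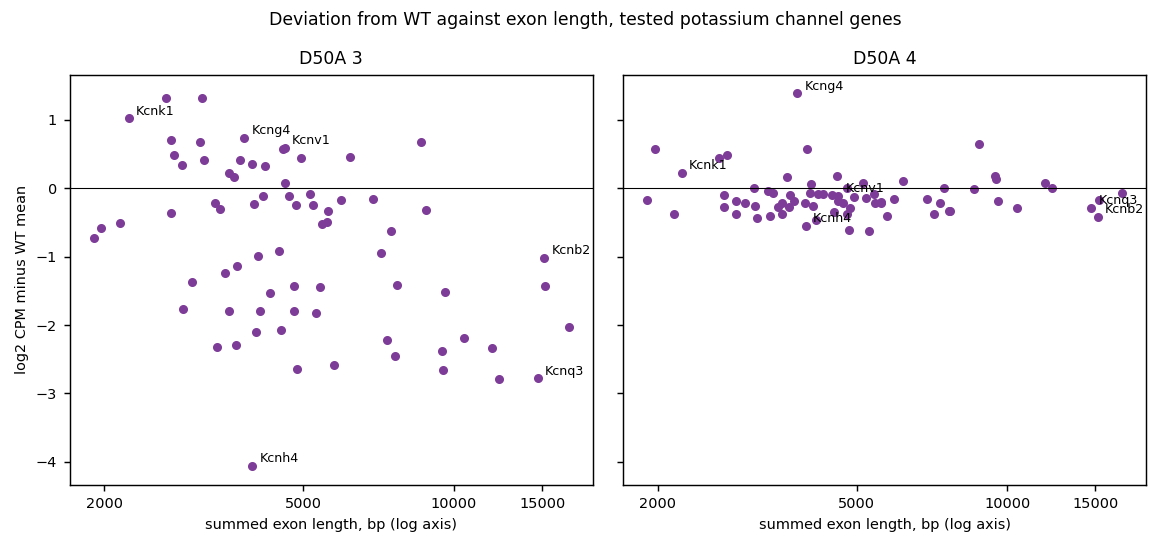
Log2 deviation from the WT mean against exon length in bp (log axis) for 73 of the 76 tested potassium channel genes, in D50A 3 (left) and D50A 4 (right). Over all 76, Spearman's rho was -0.46 in D50A 3 and -0.03 in D50A 4.

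Genes that work with these channels were examined from 2 lists. Of 34 genes for channel partners, such as anchoring proteins, HCN channels and sulfonylurea receptors, 33 were tested and 0 passed in either direction, with a median log2 fold change of -0.21 with all libraries and -0.05 without D50A 3. Without D50A 1 and D50A 3, the comparison in which genotype and cerebellar content cannot be told apart, Akap5 and Nedd4l were called lower. These were 2 of 33 genes (6.06%), with 3.06% of all genes called lower and 6.42% called in either direction. The 4 members with the smallest unadjusted p were Lrrc38, a BK channel gamma subunit (log2 fold change 0.43, SE 0.20), Dlg2, a scaffold of Kv1 channels (-0.27, SE 0.16), Cntnap2, which clusters Kv1 channels along axons (-0.25, SE 0.15), and Lgi1, a secreted protein of Kv1 complexes (-0.21, SE 0.13). Of 14 genes for potassium transport, all tested, 0 passed in either direction, with a median of -0.15 and of -0.01 without D50A 3. The fit of all 8 libraries called 0% of all genes, so 0 calls in these 2 lists do not show that their genes were unchanged. The 4 transport genes with the smallest unadjusted p were Atp1b3, Slc12a5, Tmem38a and Tmem38b. Atp1b3, a sodium pump subunit, was at 116, 118, 208, 128 and 123 CPM in D50A and 109, 108 and 105 CPM in WT. Every D50A library was higher, D50A 3 the most, and the log2 fold change was 0.36 (SE 0.22) and without D50A 3 0.18 (SE 0.06). Slc12a5, the neuronal potassium-chloride cotransporter KCC2, was at 76.0 CPM in D50A 3, 475 to 699 in the other D50A libraries and 568 to 718 in WT.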

How the data were processed

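The authors deposited 1 table of raw counts per gene for the 8 libraries. The build was mm10, per the submitters' processing notes, which also list STAR 2.5, HTSeq 0.6.1, CASAVA 1.8 and DESeq2 2 without saying what each did. The annotation release and strand setting were not given there. From the counts, edgeR 4.0.16 (R 4.3.3) was run with filterByExpr, TMM factors and quasi-likelihood tests over all genes, with a Benjamini-Hochberg threshold of 0.05. The fitting step was also run on simulated counts that differed only by planted fold changes, library size and random spread. They held no cerebellar difference between libraries and no trend with gene length, so that run does not check the fit under these. CPM uses TMM-scaled library sizes, and log2 CPM a prior count of 2. The SE of an edgeR fold change is approximate: the size of the log2 fold change was divided by the square root of the test's F statistic. Alternatives were DESeq2 1.42.0, limma 3.58.1 (voom with quality weights), other factors and filters, a cerebellar covariate, and libraries left out. Gene models for length, overlap and coding sequence came from GENCODE M21, which held 25484 of 25815 IDs. Described were the 2 highest members per family, the 12 with the smallest unadjusted p with and without D50A 3, and those whose groups did not overlap. Other members, among them Kcna6, Kcnc4, Kcnh4, Kcnip2, Kcnip4 and Kcnk10, were named after their values were seen. Results of some genes are not reported here and the figures leave them out. The members and lists were chosen with earlier results of these data known. Replicate libraries differed by more than counting noise (chi-square per degree of freedom of at least 3.18). The labels do not tie libraries to separate litters, so p-values measure the spread between these samples.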

Additional observations from a re-analysis of the deposited data

Results flagged for a closer look

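In the 5 D50A libraries, 23 of 73 tested potassium channel genes had 1 library far from the other 4 by Dixon's criterion (a gap of more than 0.71 of the group's range), which chance gives in about 1 of 20 groups. D50A 3 was the lowest in 16 of them: Kcna1 at 82.6 CPM, Kcnab3 at 11.3, Kcnc1 at 47.9, Kcnc2 at 69.9, Kcnc4 at 15.9, Kcnd3 at 30.6, Kcnh1 at 20.3, Kcnj2 at 15.45, Kcnj6 at 5.64, Kcnj9 at 55.6, Kcnk9 at 3.515, Kcnn2 at 19.5, Kcnn3 at 7.03, Kcnq3 at 35.3, Kcnq5 at 30.7 and Kcnt1 at 29.2 CPM. In 5 genes D50A 3 was the highest, namely Kcnab1 at 196 CPM, Kcnj14 at 3.89 CPM, Kcnj16 at 34.3 CPM, Kcnk1 at 171.1 CPM and Kcnv1 at 136 CPM. In the other 2 genes the distant library was D50A 1, the highest for Kcna6 at 74.7 CPM and the lowest for Kcnt2 at 23.4 CPM. The criterion was applied to potassium channel genes only, so no share over all genes stands beside the 23. Genes of the same library are not independent, so the count cannot be set directly against 1 in 20.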

How the results depend on the processing

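Of all genes tested, 0 were called with all 8 libraries, 37 with DESeq2, 517 with limma-voom and 1065 without D50A 1 and D50A 3. Leaving out 1 library gave 0 to 26 calls, the 26 without D50A 1. Of the potassium channel genes 0 were called in the main comparison and with each library left out, 10 with limma-voom and 16 without D50A 1 and D50A 3. A threshold of 0.1 gave 0 calls in both. The median log2 fold change of the members ran from -0.25 to -0.10 when 1 library was left out. For 19 genes under 15 alternatives (285 values), 258 kept their direction and side of the threshold. Another 20 passed it (9 with limma-voom, 11 without D50A 1 and D50A 3) and 7 changed sign. With the cerebellar covariate these were Kcnj12 at -0.10, Kcnj4 at 0.00 and Kcnk12 at -0.09. Kcnv1 changed sign in edgeR with relative log expression (RLE) factors in place of TMM, at 0.01. It also did so without D50A 1 (0.09), without D50A 2 (0.01) and without D50A 5 (0.01). With 1 library left out, Kcnv1 ranged from -0.22 to 0.09. The cause of these sign changes was not tested. Genes below 3 counts in a library, 0.117 to 0.278 CPM, cannot be told from 0. No paired analysis was possible because the labels give the libraries no shared numbers, and their numbers here follow accession order.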
